A study of Mus musculus with 12 samples.

Results

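The genes described here are the semaphorins, their plexin and neuropilin receptors, and the netrin, Unc5, Slit and Robo genes, 45 of the 47729 genes listed for each library. The rule that picked them matches gene symbols and uses no measured value, although it was written with earlier results of these data known. They comprise 20 semaphorins, 9 plexins, 2 neuropilins, 3 netrins, 4 Unc5 genes, 3 Slit genes and 4 Robo genes. The libraries came from 6 mouse hepatocellular carcinoma cell lines, 3 established from primary liver tumours (T1, T2 and T3) and 3 from lymph node metastases (M1, M2 and M3). All of them, controls included, are labelled as carrying the activated kinase BRAFV600E and a p53 knockout, and the series describes the parent mouse model as expressing BRAFV600E in hepatocytes with Trp53 or Cdkn2a deleted. Each line gave 1 library after 48 h in DMSO, the solvent control, and 1 after 48 h in 2 μM PLX4720, an inhibitor of mutant BRAF. A group is therefore 3 lines, and a line stands for its treatment through 1 library only. The sources used here do not say whether the lines came from different mice, and the names of the tables for T3, M2 and M3 share a number. The p-values therefore speak for these lines only. Those for PLX4720 rest on how the change with treatment varied from line to line. Those between sites rest on how levels varied between lines.

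Semaphorins are secreted or membrane-bound ligands that steer growing axons, migrating cells and vessels. Most bind plexins, which regulate small GTPases inside the cell, while most secreted class 3 semaphorins bind neuropilin 1 or 2 with a plexin as the signalling partner. Netrins act through Dcc, Neo1 and the Unc5 receptors, and Slit proteins act through Robo receptors. In liver and in tumours these genes are known for roles in the vasculature, in cell migration and invasion, and in fibrosis.

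The libraries held 31992512 to 39288748 counted fragments each, of which the guidance genes took 61542 to 127347. Mitochondrial genes took 3.67% of fragments in T3 under PLX4720 and at most 0.712% elsewhere. Trp53 was counted at 2.79 to 8.55 CPM (counts scaled to library size by edgeR's TMM factors) over the 12 libraries, and counts over a whole gene do not show whether a part of it is deleted. Cdkn2a ranged from 79.2 to 175 CPM in the primary lines and from 0 to 254 CPM in the metastasis lines. Dusp6, a phosphatase gene induced by ERK signalling, stood at 273 to 347 CPM in the primary lines under DMSO and at 147 to 183 CPM under PLX4720, and at 167 to 194 and 36.7 to 70.9 CPM in the metastasis lines. Against the label of hepatocellular carcinoma, hepatocyte and keratin markers were high in the primary lines alone, and even there Alb stayed at 15.8 CPM or less. The 10 hepatocyte markers summed to 793 to 1893 CPM over the primary libraries, mostly Apob, and to 0.238 to 4.59 CPM over the metastasis libraries. The keratin genes Krt8 and Krt18 stood at 1851 CPM or more in every primary library and at 9.18 CPM or less in every metastasis library. They belong to a list of 9 cholangiocyte and progenitor markers that did not vanish as a whole. Its sum was 7096 to 10518 CPM in the primary libraries. In the metastasis lines it was 4565 to 9103 CPM under DMSO, which overlaps the primary lines, and 1209 to 2535 CPM under PLX4720. As a sum, the 12 markers of fibroblasts and stellate cells ran opposite to the hepatocyte markers, at 2.32 to 77.3 CPM in the primary libraries and 1888 to 8388 CPM in the metastasis libraries. Not every marker followed the sum. Rgs5 and Reln were highest in T1 under DMSO, at 14.3 and 4.37 CPM, Des was at 0 in every metastasis library and Lrat was at 0 throughout. The part of these marker differences in the results that follow was not tested, and in bulk RNA fewer cells of a type and less RNA per cell cannot be told apart.

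Promoters are shown for 5 genes on which the results turn. Ntn4, Plxna2 and Sema3d were called higher after PLX4720 at both sites, and Unc5c and Sema7a are among the genes whose response differed between sites. Each sequence is the RefSeq window from 250 bases before to 50 bases after a transcript start on build GRCm38.p6, plus strand, and capitals mark CAGACA, a short motif bound by SMAD proteins, or its reverse complement. The windows are chr10:93640799-93641098 for Ntn4, chr1:194619579-194619878 for Plxna2, chr5:12382916-12383215 for Sema3d, chr3:141465314-141465613 for Unc5c and chr9:57939862-57940161 for Sema7a.
Ntn4: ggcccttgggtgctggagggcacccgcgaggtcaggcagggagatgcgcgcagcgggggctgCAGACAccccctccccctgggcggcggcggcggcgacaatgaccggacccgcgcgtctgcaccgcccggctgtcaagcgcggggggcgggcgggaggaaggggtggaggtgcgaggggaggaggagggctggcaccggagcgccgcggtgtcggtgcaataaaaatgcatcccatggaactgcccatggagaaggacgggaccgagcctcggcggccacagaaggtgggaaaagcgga
Plxna2: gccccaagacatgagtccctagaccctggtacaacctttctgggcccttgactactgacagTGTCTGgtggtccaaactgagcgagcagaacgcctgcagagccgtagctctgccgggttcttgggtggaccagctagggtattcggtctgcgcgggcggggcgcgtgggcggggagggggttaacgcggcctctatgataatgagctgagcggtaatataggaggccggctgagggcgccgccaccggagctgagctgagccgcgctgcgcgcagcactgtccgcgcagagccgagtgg
Sema3d: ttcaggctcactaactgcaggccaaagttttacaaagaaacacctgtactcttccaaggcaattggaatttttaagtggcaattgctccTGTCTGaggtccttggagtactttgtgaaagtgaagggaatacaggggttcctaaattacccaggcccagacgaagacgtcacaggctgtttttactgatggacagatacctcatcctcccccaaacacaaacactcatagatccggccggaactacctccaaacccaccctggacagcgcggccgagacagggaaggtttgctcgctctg
Unc5c: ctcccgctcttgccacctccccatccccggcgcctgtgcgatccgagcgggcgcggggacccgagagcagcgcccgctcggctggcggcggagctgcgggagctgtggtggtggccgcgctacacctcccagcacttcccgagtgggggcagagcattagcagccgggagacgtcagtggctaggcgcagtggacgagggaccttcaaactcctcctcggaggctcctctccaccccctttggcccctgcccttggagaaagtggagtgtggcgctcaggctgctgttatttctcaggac
Sema7a: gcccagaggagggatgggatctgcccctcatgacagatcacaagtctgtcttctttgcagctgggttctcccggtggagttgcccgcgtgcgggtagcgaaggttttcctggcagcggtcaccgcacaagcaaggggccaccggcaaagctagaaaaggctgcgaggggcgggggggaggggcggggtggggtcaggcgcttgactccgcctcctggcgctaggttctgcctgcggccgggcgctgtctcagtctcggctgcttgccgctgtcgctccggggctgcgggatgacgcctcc
The first 3 windows each hold 1 match to CAGACA on either strand and the windows of Unc5c and Sema7a hold none. Plxnb2 (2 windows) and Robo2 (3 windows), also called higher at both sites, hold none, and the window of Nrp1, whose response differed between sites, holds 1. Of 45 genes, 37 have an entry in the RefSeq table, with 50 windows in all because 9 have more than 1. CAGACA was found in 16 of the 50 windows against 21.0% of all 32851 windows in the table. The AP-1 motif TGANTCA was found in 3 (Sema4c, Sema4d and Sema6b; 7.81% of all windows) and the TEAD motif GGAATG in 4 (Plxnb1, Plxnd1, Robo2 and Sema4a; 14.7%). The ETS motif CCGGAAGT (3.89% of all windows) and the palindromic SMAD motif GTCTAGAC (0.213%) were found in none. All motifs were searched on both strands and none contains another. A match is a description of the letters in the window.

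Per length of transcript, receptor genes led by the median over the 12 libraries, but not within each site. Plxnb2, a receptor for class 4 semaphorins, had the highest median over the 12 libraries at 68.1 FPKM (CPM per kilobase of the counted exons), followed by the netrin receptor gene Unc5b at 52.0, the secreted semaphorin gene Sema3c at 32.7 and Nrp1 at 23.6 FPKM. Plxna1 (13.0), Sema4b (10.1), Nrp2 (9.98), Sema3e (6.86), Ntn4 (6.09) and Sema4c (5.59) completed the first 10. Under DMSO a semaphorin gene had the highest mean at each site, though not the highest value in every line. In the primary lines it was Sema3c at 82.8 FPKM, beside 79.6 for Plxnb2. In the metastasis lines it was Sema7a at 53.9 FPKM, beside 43.2 for Plxnb2, although the Sema7a median over the 12 libraries was 2.44. In T3 Plxnb2 (98.8 FPKM) lay above Sema3c (77.1), and in M3 Unc5b (42.5) and Plxnb2 (37.8) lay above Sema7a (34.8). The Sema3c and Sema3e medians stand between primary and metastasis levels far apart, as described for the site comparison, and over the 12 libraries the ranges of neighbours in this order overlapped. The summed FPKM of the semaphorins was 120 to 171 in the primary libraries, 75.4 to 124 in the metastasis lines under DMSO and 23.0 to 56.3 in the metastasis lines under PLX4720, so that the last group lay below every other library. The summed Slit genes stayed at or below 0.584 FPKM in every primary library and reached 9.55 to 25.3 FPKM in the metastasis libraries. The summed Robo genes were at 10.4 to 19.4 FPKM in T1 and T2 and at 0.775 FPKM or less in T3 and all metastasis libraries. Robo4, the Robo gene of endothelium, had no fragment in any library, which allows up to 3 fragments in each. Ntn5, Robo3, Sema5b and Unc5d had 2 to 5 fragments over all 12 libraries together, and Slit1 had 100. These 6 genes did not pass the filter on low counts, so that 39 of 45 were tested for a response to PLX4720. The 12 endothelial markers summed to 7.71 to 229 CPM in the primary and 13.6 to 60.1 CPM in the metastasis libraries, with Pecam1, Tie1, Emcn and Erg below 1 CPM in every library. Other members of the list were high in T1, where Sox17 reached 83.9, Flt1 74.1 and Tek 69.6 CPM, and Flt1 reached 49.4 CPM in M1. The 10 leukocyte markers summed to 48.8 to 62.8 and 9.46 to 46.5 CPM, with Tyrobp and Adgre1 at 0 throughout, while Cd14 reached 55.3 CPM and Cd53 31.4 CPM. The 10 neural and Schwann cell markers summed to 14.6 to 58.9 and 7.28 to 28.7 CPM, with Sox10, Snap25 and Elavl3 below 1 CPM throughout, while Tubb3 reached 57.4 CPM and Stmn2 13.3 CPM. The part of these lists in the results was not tested.

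**Figure D1:**
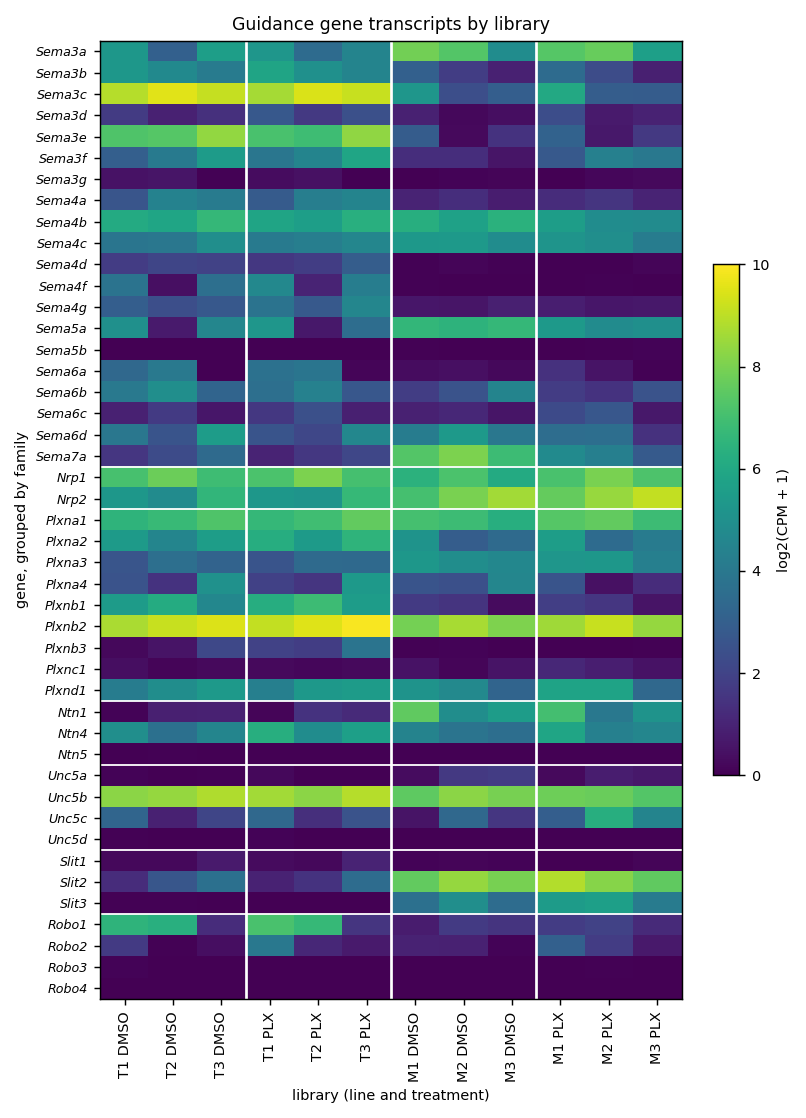
Level of each guidance gene in the 12 libraries as log2(CPM + 1), in colour, with genes down the vertical axis by family and libraries along the horizontal axis by site and treatment. Sema3c, Sema3e and Plxnb1 are high in the primary lines, and Slit2, Slit3, Ntn1 and Sema7a are high in the metastasis lines.

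Over all 6 lines PLX4720 raised some of the guidance receptor genes and changed semaphorins in both directions. By edgeR's quasi-likelihood test with the line as a block (Benjamini-Hochberg adjusted p under 0.05 over all 16555 genes tested), 19 of the 39 tested genes were called, against 27.2% of all genes. Of these 14 were higher, against 14.5% of all genes, and 5 were lower, against 12.7%. The median log2 change was 0.33 over the 39 genes and 0.03 over all genes. All 5 lower genes were semaphorins, while 5 of 9 plexins, both neuropilins, 1 of 2 tested netrins, 1 of 2 Robo and 1 of 3 Unc5 genes were higher, and neither tested Slit gene was called, at unadjusted p of 0.321 (Slit2) and 0.951 (Slit3). The abundant receptor gene Unc5b was higher in T1, T3 and M1 and lower in T2, M2 and M3, and was not called. The tests of the primary lines, of the metastasis lines and of all 6 lines come from 1 fit and share their libraries.

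Among the receptors, Plxna2, which signals for class 3 and class 6 semaphorins, was at 43.2, 22.3 and 45.9 CPM in T1, T2 and T3 under DMSO and at 74.2, 42.5 and 89.1 CPM under PLX4720. In M1, M2 and M3 it was at 34.5, 6.78 and 10.1 and then 45.8, 10.3 and 17.1 CPM. It was higher after PLX4720 in 6 of 6 lines (log2 change 0.74 ± 0.07 SE, n = 6, edgeR adjusted p = 0.000332), although the ranges of the DMSO and PLX4720 libraries overlapped, the lines starting at different levels. Plxnb2 stood at 424, 572 and 703 CPM in the primary lines under DMSO and at 546, 734 and 966 CPM under PLX4720, and in the metastasis lines at 240, 412 and 269 and 383, 572 and 340 CPM. Every line was higher, by a small amount (log2 change 0.44 ± 0.06 SE, n = 6, edgeR adjusted p = 0.00184). Plxnb1, the receptor for Sema4d, went from 43.5, 70.5 and 23.8 to 73.6, 114 and 45.7 CPM in the primary lines and from 2.27, 1.87 and 0.232 to 2.57, 2.03 and 0.436 CPM in the metastasis lines. It was higher in 6 of 6 lines (log2 change 0.52 ± 0.10 SE, n = 6, edgeR adjusted p = 0.00601), with the metastasis lines far below the primary lines under both treatments. Plxna1 (log2 change 0.39 ± 0.07 SE, n = 6, edgeR adjusted p = 0.00461) and Plxnd1, a receptor of the vasculature (log2 change 0.45 ± 0.12 SE, n = 6, edgeR adjusted p = 0.0221), were each higher in 6 of 6 lines as well.

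The neuropilins, co-receptors for class 3 semaphorins and for VEGF, also rose. Nrp1 was at 137, 212 and 117 CPM in T1, T2 and T3 under DMSO and at 141, 257 and 131 CPM under PLX4720, and at 84.5, 141 and 68.6 and 138, 254 and 147 CPM in M1, M2 and M3. All 6 lines were higher (log2 change 0.53 ± 0.07 SE, n = 6, edgeR adjusted p = 0.00110), and under PLX4720 the metastasis lines stood in the range of the primary lines. Nrp2 rose less (log2 change 0.33 ± 0.06 SE, n = 6, edgeR adjusted p = 0.00674) and was higher in 5 of 6 lines, T1 being level at 38.7 and 38.1 CPM. Unc5c, a receptor through which netrins repel cells, went from 8.61, 0.895 and 3.20 to 9.44, 1.53 and 4.81 CPM in the primary lines and from 0.448, 9.37 and 2.03 to 6.93, 76.0 and 21.7 CPM in the metastasis lines. Its rise, in 6 of 6 lines, was 3.72-fold over all lines (log2 change 1.90 ± 0.14 SE, n = 6, edgeR adjusted p = 0.000104) and was larger in M1, M2 and M3 than in the primary lines. Robo2, a Slit receptor, was at 2.28, 0.0526 and 0.302 CPM in the primary lines under DMSO and 15.0, 1.14 and 0.669 CPM under PLX4720, and at 0.925, 0.893 and 0.0581 and 7.42, 2.46 and 0.611 CPM in the metastasis lines. It was higher in 6 of 6 lines from low levels (log2 change 2.47 ± 0.33 SE, n = 6, edgeR adjusted p = 0.00128). The most abundant Robo gene, Robo1, was at 89.2, 78.7 and 1.44 CPM in the primary lines under DMSO and 140, 103 and 1.90 CPM under PLX4720, and at 2.97 CPM or less in every metastasis library. It passed no test in any of the 6 comparisons.

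Among the ligands, Ntn4, a netrin of basement membranes, went from 29.6, 11.9 and 22.5 CPM to 76.0, 27.7 and 49.5 CPM in T1, T2 and T3 and from 21.3, 13.5 and 11.1 to 58.2, 19.7 and 23.0 CPM in M1, M2 and M3. Each line was higher under PLX4720 (log2 change 1.13 ± 0.11 SE, n = 6, edgeR adjusted p = 0.000343). The class 3 genes Sema3f (log2 change 2.02 ± 0.27 SE, n = 6, edgeR adjusted p = 0.00124) and Sema3d (log2 change 1.71 ± 0.15 SE, n = 6, edgeR adjusted p = 0.000222) rose in 6 of 6 lines, and Sema3b rose by less (log2 change 0.42 ± 0.10 SE, n = 6, edgeR adjusted p = 0.0176) and in 5 of 6. Sema3d rose from low levels, at 2.31, 0.869 and 1.61 CPM in T1, T2 and T3 under DMSO. Under PLX4720 these lines were at 5.78, 2.12 and 4.36 CPM. In M1, M2 and M3 it was at 0.865, 0.149 and 0.290 and then 4.19, 0.637 and 0.960 CPM. Sema3b and Sema3f lie 72.3 kb apart on chromosome 9. The transmembrane gene Sema6c was higher in 6 of 6 lines (log2 change 1.36 ± 0.24 SE, n = 6, edgeR adjusted p = 0.00456). It too started low, at 0.494 to 2.29 CPM under DMSO, and M3 held 17 fragments under DMSO and 20 under PLX4720. The lower semaphorins were all membrane-bound ones: Sema7a, Sema4b, Sema5a, Sema6b and Sema6d. Sema7a, a GPI-anchored semaphorin that binds Plxnc1 and integrins, was lower by the most (log2 change -2.35 ± 0.21 SE, n = 6, edgeR adjusted p = 0.000242) and in 6 of 6 lines. Sema4b was at 68.1, 58.0 and 100 CPM in the primary lines under DMSO and 55.8, 48.0 and 77.8 CPM under PLX4720, and at 76.6, 52.2 and 81.8 and 47.0, 28.1 and 27.2 CPM in the metastasis lines. It was lower in 6 of 6 lines (log2 change -0.68 ± 0.11 SE, n = 6, edgeR adjusted p = 0.00265), and in the metastasis lines the DMSO and PLX4720 libraries did not overlap. Sema5a was at 31.3, 0.658 and 23.0 and 37.6, 0.572 and 10.9 CPM in the primary lines and at 98.0, 88.2 and 99.2 and 41.3, 27.2 and 30.5 CPM in the metastasis lines. It was lower in 5 of 6 lines (log2 change -0.96 ± 0.17 SE, n = 6, edgeR adjusted p = 0.00422), with T1 higher and T2 below 1 CPM under both treatments. Sema6d (log2 change -1.41 ± 0.27 SE, n = 6, edgeR adjusted p = 0.00611) and Sema6b (log2 change -0.93 ± 0.22 SE, n = 6, edgeR adjusted p = 0.0147) were lower in 6 of 6 lines. Of these 19 calls, 17 held when each line in turn was left out. Plxnd1 missed the threshold without T1, T2 or M2 (adjusted p = 0.0542 to 0.0761) and Sema3b without T1 or M2 (0.0699 to 0.0920).

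**Figure D2:**
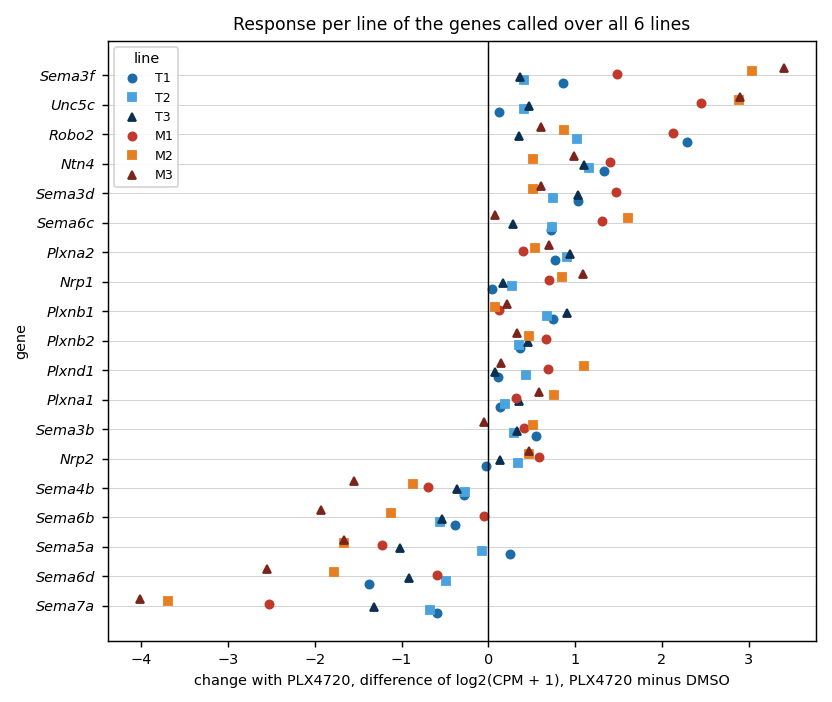
Response to PLX4720 of the 19 guidance genes called over all 6 lines, as the PLX4720 minus the DMSO library on the log2(CPM + 1) scale (horizontal axis), 1 point per line, with primary lines in blues and metastasis lines in red to orange. Unc5c and Sema3f lie farthest to the right in the metastasis lines, and Sema7a lies farthest to the left.

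In the primary lines PLX4720 raised 8 of the 39 tested genes, against 8.23% of all genes called in either direction and 4.46% called higher, and edgeR called none lower, against 3.77% of all genes. At an unadjusted p under 0.05, 2 genes were lower, Sema6d and Sema7a, the latter with a log2 change of -1.20 ± 0.33 SE (adjusted p = 0.0563), and DESeq2 called 11 higher and 2 lower. The 8 were the plexins Plxna2, Plxnb1, Plxnb2 and Plxnb3, the ligands Ntn4, Sema3d and Sema4g, and Robo2. Plxna2 rose 1.85-fold (log2 change 0.89 ± 0.10 SE, n = 3, edgeR adjusted p = 0.00367). Ntn4 rose 2.36-fold (log2 change 1.24 ± 0.16 SE, n = 3, edgeR adjusted p = 0.00533) and Sema3d 2.55-fold (log2 change 1.35 ± 0.19 SE, n = 3, edgeR adjusted p = 0.00711). Plxnb2 rose 1.31-fold (log2 change 0.39 ± 0.09 SE, n = 3, edgeR adjusted p = 0.0344). Plxnb1 (log2 change 0.80 ± 0.11 SE, n = 3, edgeR adjusted p = 0.00711), Sema4g (log2 change 1.16 ± 0.29 SE, n = 3, edgeR adjusted p = 0.0446) and Robo2 (log2 change 2.55 ± 0.47 SE, n = 3, edgeR adjusted p = 0.0181) each rose in 3 of 3 lines. Plxnb3 went from 0.167, 0.447 and 3.53 to 2.93, 2.56 and 13.5 CPM (log2 change 2.56 ± 0.39 SE, n = 3, edgeR adjusted p = 0.0105), while each metastasis group held 3 fragments or fewer. Among the semaphorins that were lower over all 6 lines, Sema4b was lower in T1, T2 and T3 but by a small amount (log2 change -0.31 ± 0.15 SE, edgeR adjusted p = 0.229). Leaving out T1 brought the count to 1 and T2 to 3, while leaving out M1 brought it to 13 and M3 to 14. Of the 8 calls, only Plxna2 held when each of the 6 lines was left out in turn. Ntn4 (adjusted p = 0.0555) and Sema3d (0.0731) missed without T1. Plxnb1 (0.0510 to 0.0692), Plxnb3 (0.0550 to 0.0555) and Robo2 (0.0736 to 0.210) missed without T1 or T2. Plxnb2 missed without any 1 of the primary lines (0.126 to 0.191) and Sema4g without T1, T2, T3 or M2 (0.0572 to 0.185).

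In the metastasis lines 21 of the 39 tested genes were called after PLX4720, against 20.4% of all genes. Of these 13 were higher, against 12.0% of all genes, and 8 were lower, against 8.36%. The genes called higher were Plxna1, Plxna2, Plxnb2, Plxnd1, Nrp1, Nrp2, Robo2, Unc5c, Ntn4, Sema3d, Sema3f, Sema6c and Slit3, and those called lower were Sema4b, Sema5a, Sema6b, Sema6d, Sema7a, Ntn1, Unc5a and Plxna4. Ntn4, Plxna2, Plxnb2, Robo2 and Sema3d were thus called higher at both sites, with log2 changes in the metastasis lines of 1.02, 0.58, 0.49, 2.39 and 2.07. For Sema3d the metastasis lines held 44 fragments under DMSO and 207 under PLX4720. The largest changes by fold among the genes called were those of Sema7a, 11.3-fold lower (log2 change -3.50 ± 0.29 SE, n = 3, edgeR adjusted p = 0.000124), and Sema3f, 11.0-fold higher (log2 change 3.46 ± 0.42 SE, n = 3, edgeR adjusted p = 0.000771). Unc5c was 10.2-fold higher (log2 change 3.35 ± 0.20 SE, n = 3, edgeR adjusted p = 3.02e-05). Sema7a, Sema3f, Sema4b (log2 change -1.06 ± 0.15 SE, n = 3, edgeR adjusted p = 0.00177), Sema5a (log2 change -1.55 ± 0.22 SE, n = 3, edgeR adjusted p = 0.00157) and Sema6d were the tested genes whose DMSO and PLX4720 libraries did not overlap. The share of all genes without such overlap was not computed, so the lack of overlap only describes these genes and does not set them apart. Sema6d fell from 17.1, 41.0 and 14.6 to 11.0, 11.3 and 1.66 CPM (log2 change -1.78 ± 0.38 SE, n = 3, edgeR adjusted p = 0.0124). Slit3, a secreted Robo ligand, went from 11.8, 29.6 and 10.5 CPM in M1, M2 and M3 to 44.1, 48.4 and 16.9 CPM (log2 change 1.10 ± 0.23 SE, n = 3, edgeR adjusted p = 0.0113). Slit2, at 193, 345 and 245 CPM under DMSO and 459, 287 and 185 CPM under PLX4720, was higher in M1 and lower in M2 and M3, with no call, and its fitted log2 change of 0.18 turned to -0.34 without M1. Plxna4, at 5.07, 4.37 and 22.8 CPM under DMSO and 4.98, 0.364 and 1.40 CPM under PLX4720, was lower in 3 of 3 lines (log2 change -2.33 ± 0.71 SE, n = 3, edgeR adjusted p = 0.0490), M1 being almost level. Unc5a was also lower in 3 of 3 lines, at 2.44 CPM or less (log2 change -1.59 ± 0.41 SE, n = 3, edgeR adjusted p = 0.0314).

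Beside these changes the summed fibroblast and stellate markers ranged from 1888 to 3901 CPM in the metastasis lines under DMSO and from 4810 to 8388 CPM under PLX4720, with Lrat at 0 and Des below 1 CPM in every library. Acta2, Col1a1, Col3a1 and Pdgfrb were higher under PLX4720 in M1, M2 and M3, but not every marker followed. Thy1 was lower in M2 (4.17 to 2.94 CPM) and M3 (4.91 to 3.96 CPM), and Pdgfra and Dcn were lower in M3. The 10 leukocyte markers summed to 27.1 to 46.5 CPM under DMSO and to 9.46 to 19.1 CPM under PLX4720, with 2 of them at 0 in every library. Only 4 of the 10 reached 1 CPM in any of the 12 libraries. The lower sum came mainly from Cd53 and Cd14, while Csf1r was higher under PLX4720 in M1, M2 and M3, at 1.03 CPM or less. The part of either list in the metastasis responses was not tested. Of the 21 calls, 12 held without each line in turn. Without M2 the count fell to 13, and Ntn1 (adjusted p = 0.0513), Plxna1 (0.0511), Sema6c (0.0850) and Sema6d (0.0663) missed the threshold. Robo2 missed without M1 (0.0504) and Plxnd1 without M1 or M2 (0.0559 to 0.140), and Sema6b (0.0956 to 0.106) and Unc5a (0.137 to 0.169) without M2 or M3. Plxna4 missed without T1, T2, T3, M2 or M3 (0.0537 to 0.215).

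The response itself differed between sites for 5 of the 39 tested genes, against 2.94% of all genes, by the interaction of site and treatment. For Unc5c, Sema3f and Nrp1 the log2 change was higher in the metastasis lines, against 1.85% of all genes, and for Sema7a and Ntn1 it was lower, against 1.09%. On GRCm38 these genes lie at chr3:141465216-141834924 (Unc5c), chr9:107681500-107710475 (Sema3f), chr8:128359073-128505462 (Nrp1), chr9:57940113-57962864 (Sema7a) and chr11:68209364-68400823 (Ntn1). Unc5c moved by a log2 difference of 0.44 in the primary lines (adjusted p = 0.185, edgeR) and 3.35 in the metastasis lines, a gap of 2.90 ± 0.27 SE (edgeR adjusted p = 0.00299). Sema3f, a ligand for Nrp2, was at 7.24, 16.1 and 44.1 and 14.0, 21.8 and 57.3 CPM in the primary lines under DMSO and PLX4720 and at 1.46, 1.46 and 0.494 and 5.89, 19.2 and 14.9 CPM in the metastasis lines. All 6 lines were higher under PLX4720, and the metastasis lines rose from the lower start (gap in log2 change 2.88 ± 0.53 SE, edgeR adjusted p = 0.0264). Nrp1 was higher in every line, with a gap of 0.72 ± 0.14 SE (edgeR adjusted p = 0.0278).

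Sema7a was at 2.03, 3.90 and 9.93 CPM in T1, T2 and T3 under DMSO and 1.02, 2.07 and 3.37 CPM under PLX4720, and at 159, 259 and 115 and 26.8, 19.1 and 6.17 CPM in M1, M2 and M3. Each line was lower under PLX4720, the metastasis lines by more (gap -2.29 ± 0.43 SE, edgeR adjusted p = 0.0272), and they kept the higher level under both treatments. Ntn1, which attracts or repels cells depending on the receptor, was at 0.0557, 0.816 and 0.882 and 0.105, 1.77 and 1.28 CPM in the primary lines and at 187, 28.6 and 45.7 and 130, 15.0 and 34.6 CPM in the metastasis lines. It was higher under PLX4720 in 3 of 3 primary lines, at levels of 1.77 CPM or less, and lower in 3 of 3 metastasis lines (log2 change -0.61 ± 0.12 SE, n = 3, edgeR adjusted p = 0.00942), a gap of -1.45 ± 0.26 SE (edgeR adjusted p = 0.0234). Leaving out T1 or T2 brought the count to 1, M2 to 2 and T3 to 3, while leaving out M1 brought it to 9. Only the Unc5c gap held without each of the 6 lines. Nrp1 (adjusted p = 0.0847 to 0.169) and Sema3f (0.0527 to 0.111) missed without T1, T2, T3, M2 or M3. Sema7a missed without T1, T2, T3 or M2 (0.0577 to 0.104) and Ntn1 without T1 or T2 (0.0588 to 0.175).

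**Figure D3:**
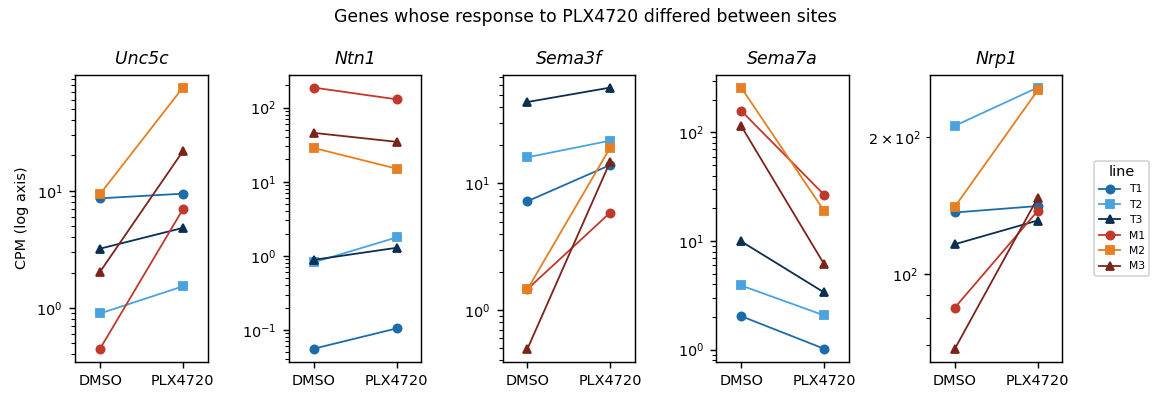
CPM (log axis) of the 5 genes whose response differed between sites, with a line joining the DMSO and PLX4720 library of each cell line. Unc5c, Sema3f and Nrp1 climb more steeply in M1, M2 and M3, Sema7a drops more steeply there, and Ntn1 climbs in the primary lines and drops in the metastasis lines.

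Between sites, the secreted ligands Sema3c and Sema3e, the transmembrane ligands Sema4a, Sema4d, Sema4f and Sema4g and the receptor Plxnb1 were lower in the metastasis lines, and Slit2, Slit3, Ntn1, Sema7a and Plxna3 were higher. Under DMSO, edgeR's test of the metastasis against the primary lines called 14 of 37 tested genes, against 12.1% of 14992 genes, 6 higher, against 4.64% of all genes, and 8 lower, against 7.49%. The median absolute log2 difference was 2.18 over the 37 genes and 0.44 over all genes. Under PLX4720 it called 17 of 37, against 13.5% of 15276 genes, 8 higher, against 5.62%, and 9 lower, against 7.88%. These 12 genes were called under both treatments, and the tests share no library but share the lines.

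Among the lower genes, Sema3c was at 469, 753 and 551 CPM in T1, T2 and T3 under DMSO and at 37.5, 4.28 and 6.91 CPM in M1, M2 and M3. Under PLX4720 the values were 402, 699 and 577 and 64.5, 6.67 and 6.60 CPM. The sites did not overlap under either treatment. The metastasis lines were 35.8-fold lower under DMSO (log2 difference -5.16 ± 0.93 SE, n = 3 a site, edgeR adjusted p = 0.0174) and 21.5-fold lower under PLX4720 (log2 difference -4.43 ± 1.02 SE, n = 3 a site, edgeR adjusted p = 0.0356). Sema3e, whose receptor is Plxnd1, was at 153, 163 and 331 CPM in the primary lines under DMSO and at 6.54, 0.179 and 1.74 CPM in the metastasis lines. Under PLX4720 it was at 141, 119 and 326 and 7.94, 0.576 and 2.18 CPM. Every primary library lay above every metastasis library (log2 difference -6.24 ± 1.22 SE, n = 3 a site, edgeR adjusted p = 0.0219 under DMSO and log2 difference -5.76 ± 1.04 SE, n = 3 a site, edgeR adjusted p = 0.0160 under PLX4720). Sema3e lies 423 kb from Sema3a and 536 kb further lies Sema3d on chromosome 5. Sema3a went the other way, at 37.0, 10.2 and 21.8 CPM in the primary and 165, 205 and 48.7 CPM in the metastasis lines under PLX4720 (log2 difference 2.62 ± 0.67 SE, n = 3 a site, edgeR adjusted p = 0.0485). Plxnb1 was lower (log2 difference -4.95 ± 0.90 SE, n = 3 a site, edgeR adjusted p = 0.0176 under DMSO and log2 difference -5.50 ± 0.75 SE, n = 3 a site, edgeR adjusted p = 0.00725 under PLX4720). Its ligand gene Sema4d was also lower, at 2.40, 3.26 and 2.90 CPM in the primary lines under DMSO (n = 3 a site, edgeR adjusted p = 0.00278). The metastasis lines held 5 fragments under DMSO, so no fold is given.

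Sema4a was at 5.26, 20.8 and 16.8 CPM in the primary lines under DMSO and at 1.01, 1.46 and 0.755 CPM in the metastasis lines (log2 difference -3.71 ± 0.63 SE, n = 3 a site, edgeR adjusted p = 0.0146 under DMSO and log2 difference -3.41 ± 0.59 SE, n = 3 a site, edgeR adjusted p = 0.0138 under PLX4720). Sema4g was at 6.96, 4.24 and 5.67 CPM against 0.507, 0.476 and 0.842 CPM under DMSO, and at 13.1, 6.02 and 23.1 against 0.794, 0.516 and 0.553 CPM under PLX4720. Neither treatment left an overlap (log2 difference -3.19 ± 0.45 SE, n = 3 a site, edgeR adjusted p = 0.00864 and log2 difference -4.47 ± 0.62 SE, n = 3 a site, edgeR adjusted p = 0.00751). Sema4f, at 12.9, 0.342 and 11.6 CPM in the primary lines under DMSO, had 1 fragment in the metastasis lines under each treatment, so no fold is given (edgeR adjusted p = 0.0219 and 0.0133). Sema3f was called lower under DMSO (log2 difference -4.29 ± 0.84 SE, n = 3 a site, edgeR adjusted p = 0.0222) and not under PLX4720 (log2 difference -1.18 ± 0.66 SE, edgeR adjusted p = 0.306). Robo1 was high in T1 and T2 and low in T3 and the metastasis lines, and did not pass (log2 difference -5.15 ± 1.40 SE, edgeR adjusted p = 0.0640 under DMSO). Under PLX4720 the abundant receptor gene Unc5b, at 395, 303 and 476 CPM in the primary and 222, 209 and 157 CPM in the metastasis lines, was also called lower (log2 difference -0.97 ± 0.24 SE, n = 3 a site, edgeR adjusted p = 0.0439). So was Plxnb3 (edgeR adjusted p = 0.00885), for which the metastasis lines held 1 fragment or fewer each.

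Among the higher genes, Slit2 was at 1.42, 5.37 and 11.9 CPM in T1, T2 and T3 under DMSO and at 193, 345 and 245 CPM in M1, M2 and M3. Under PLX4720 it was at 0.967, 1.77 and 10.5 and 459, 287 and 185 CPM. The difference was 42.0-fold under DMSO (log2 difference 5.39 ± 0.81 SE, n = 3 a site, edgeR adjusted p = 0.0101) and 71.2-fold under PLX4720 (log2 difference 6.15 ± 1.06 SE, n = 3 a site, edgeR adjusted p = 0.0140). Slit3 had 4 fragments over the primary lines under DMSO and 2 under PLX4720, against 10.5 to 29.6 and 16.9 to 48.4 CPM in the metastasis lines (edgeR adjusted p = 0.00173 and 0.00125), and no fold is given at so few fragments. Ntn1 (log2 difference 7.22 ± 1.23 SE, n = 3 a site, edgeR adjusted p = 0.0146) and Sema7a (log2 difference 5.08 ± 0.71 SE, n = 3 a site, edgeR adjusted p = 0.00811) were higher under DMSO, and under PLX4720 by a log2 difference of 5.83 and 3.03. Plxna3, a class 3 receptor, was at 5.29, 11.5 and 8.16 CPM in the primary and 38.3, 29.1 and 23.9 CPM in the metastasis lines under DMSO (log2 difference 1.89 ± 0.37 SE, n = 3 a site, edgeR adjusted p = 0.0229). Under PLX4720 it was higher by 1.95 ± 0.42 SE on the log2 scale (edgeR adjusted p = 0.0287). Unc5a was called higher under DMSO alone, with 4 fragments over the primary lines (edgeR adjusted p = 0.0277). Nrp2 (log2 difference 2.64 ± 0.57 SE, n = 3 a site, edgeR adjusted p = 0.0289) and Plxnc1 (log2 difference 2.21 ± 0.50 SE, n = 3 a site, edgeR adjusted p = 0.0323), the latter at 1.15 CPM or less in every library, were called higher under PLX4720.

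The site calls stand beside the marker differences given above. The hepatocyte markers, Krt8 and Krt18 were low in the metastasis lines, and Col3a1 stood at 1363 to 2840 CPM there and at 2.03 CPM or less in the primary lines. Their part in the site differences was not tested. Under DMSO the count was 8 without M2 and 8 without M3, and Sema4d, Sema4g, Sema7a, Slit2 and Slit3 held without each line in turn. Ntn1 missed the threshold without T2 (adjusted p = 0.0513) and Sema3c without M3 (0.0552). So did Sema3e without T2 or M3 (0.0504 to 0.0809) and Plxnb1 without T2 or M2 (0.0509 to 0.0689). Sema4a missed it without M1, M2 or M3 (0.0501 to 0.0555) and Plxna3 without T3, M1 or M2 (0.0623 to 0.0750). Sema3f missed it without T2, M1, M2 or M3 (0.0503 to 0.0801) and Sema4f without T1, M1, M2 or M3 (0.0506 to 0.0902). Unc5a missed it without any line but M1 (0.0763 to 0.0863). Under PLX4720 the count was 11 without T1, 10 without T2, 11 without T3, 8 without M2 and 10 without M3, and Plxnb1, Plxnb3, Sema4g, Slit2 and Slit3 held without each line. Sema3e (0.0641) and Sema4a (0.0517) missed without M3, Sema4d without M2 (0.0653) and Sema4f without M2 or M3 (0.0542 to 0.0752). Nrp2 missed without T1, T2, M2 or M3 (0.0771 to 0.0873) and Ntn1 without T2, T3, M1 or M3 (0.0587 to 0.0798). Sema3c missed without any line but M1 (0.0665 to 0.0912) and Unc5b without any line but T2 (0.0702 to 0.119). Plxna3 (0.0614 to 0.0998), Plxnc1 (0.0845 to 0.127), Sema3a (0.0612 to 0.139) and Sema7a (0.0537 to 0.116) missed without any line but M3.

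**Figure D4:**
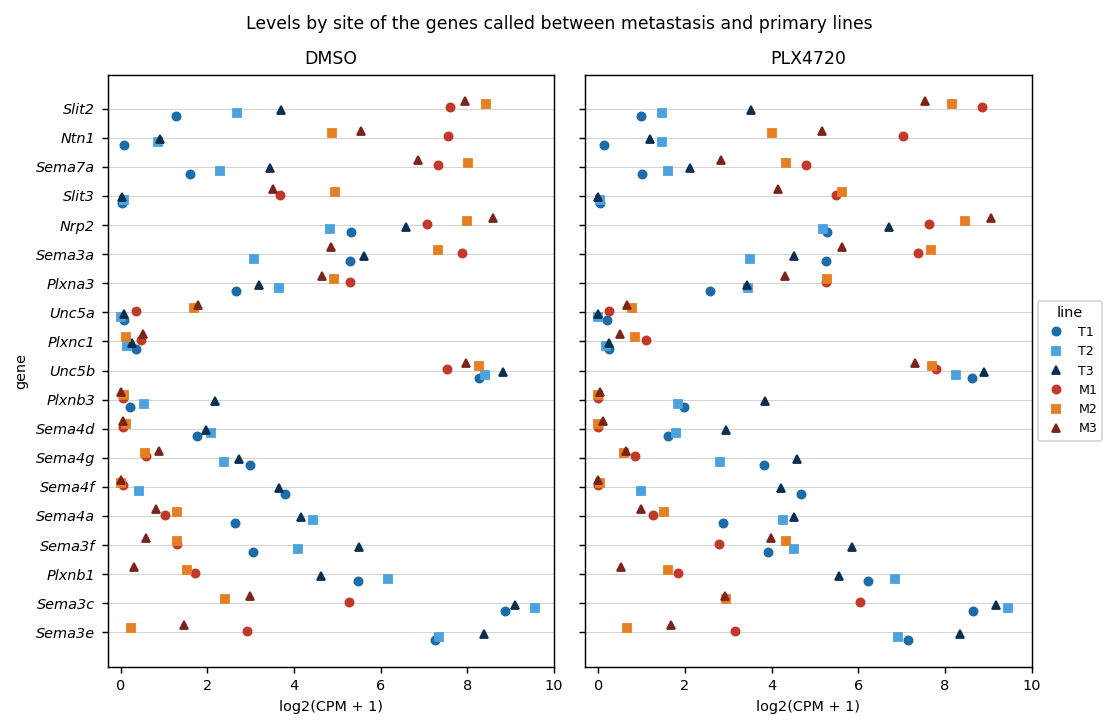
Level as log2(CPM + 1) (horizontal axis) of the 19 guidance genes called in either site comparison, 1 point per line, under DMSO on the left and PLX4720 on the right. Primary lines are in blues and metastasis lines in red to orange. Sema3e, Sema3c and Plxnb1 lie far apart by site at the bottom and Slit2, Ntn1 and Sema7a at the top.

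Of the 39 genes tested in at least 1 comparison, 35 were called in at least 1. Robo1, Sema3g, Sema4c and Sema6a were called in none. The share of all genes called in at least 1 comparison was not computed, so the count of 35 does not set guidance genes apart. Sema4c, a class 4 semaphorin that binds Plxnb2, ranged from 14.0 to 40.7 CPM over the 12 libraries. Sema3g stayed below 1 CPM. Sema6a, a transmembrane ligand for Plxna2 and Plxna4, was at 9.36, 15.5 and 0.0252 CPM in T1, T2 and T3 under DMSO and at 1.67 CPM or less in the metastasis libraries, so that T3 lay with the metastasis lines. The counting used no strand, and opposite-strand genes overlap 10.7% of the counted exons of Plxna1 and 7.27% of those of Sema4c, for which reads of both genes cannot be told apart.

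Of 64 other guidance genes (further ligands, receptors and effectors inside the cell), 55 were tested for the response to PLX4720. Over all 6 lines 25 were higher, against 14.5% of all genes, and 3 lower, against 12.7%, by edgeR's test, with a median log2 change of 0.24 against 0.03 over all genes. Of the effectors, 16 of 37 were higher and 2 lower, of the other ligands 6 of 11 and 1, and of the other receptors 3 of 4 and none, while none of the 3 VEGF receptor genes was called, the lowest unadjusted p being 0.363. Cdon, a hedgehog co-receptor that also binds the netrin receptor Neo1, rose (log2 change 1.38 ± 0.10 SE, edgeR adjusted p = 8.74e-05), as did Spon2, a secreted matrix protein of the spondin family (log2 change 3.13 ± 0.22 SE, edgeR adjusted p = 9.58e-05). So did Ablim1, an actin-binding protein (log2 change 1.44 ± 0.13 SE, edgeR adjusted p = 0.000263) and the receptor phosphatase gene Ptprf (log2 change 1.19 ± 0.14 SE, edgeR adjusted p = 0.000610). In the primary lines 6 were higher, against 4.46% of all genes, and 1 was lower, against 3.77%. Higher were among others Spon2 (log2 change 1.92 ± 0.24 SE, edgeR adjusted p = 0.00533), Cdon (log2 change 1.00 ± 0.13 SE, edgeR adjusted p = 0.00602) and Dpysl3, which encodes a CRMP family protein (log2 change 0.48 ± 0.09 SE, edgeR adjusted p = 0.0197). The 1 lower gene was Sh3bp1 (log2 change -0.59 ± 0.11 SE, edgeR adjusted p = 0.0172). In the metastasis lines 16 were higher, against 12.0% of all genes, and 1 was lower, against 8.36%. The higher ones were led by Cdon (log2 change 1.75 ± 0.14 SE, edgeR adjusted p = 0.000114), Spon2 (log2 change 4.33 ± 0.37 SE, edgeR adjusted p = 0.000163) and Ablim1 (log2 change 2.30 ± 0.20 SE, edgeR adjusted p = 0.000178). The 1 lower gene was Rgmb, a ligand of the netrin receptor Neo1 (log2 change -1.24 ± 0.14 SE, edgeR adjusted p = 0.000536). The response differed between sites for Ablim1, Vegfc and Spon2, higher, against 1.85% of all genes, and for Rgmb, lower, against 1.09%, by edgeR's interaction test. The log2 gaps were 1.71, 1.42, 2.41 and -1.10, with adjusted p of 0.0154, 0.0204, 0.0269 and 0.0241.

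Between sites 52 of these other genes were tested, of which 6 were higher in the metastasis lines under DMSO, against 4.64% of all genes, and 7 lower, against 7.49%. Under PLX4720 7 were higher, against 5.62%, and 4 lower, a share close to the 7.88% of all genes. Rgmb (log2 difference 2.51 ± 0.22 SE, edgeR adjusted p = 0.00188) and the exchange factor gene Trio (log2 difference 1.17 ± 0.18 SE, edgeR adjusted p = 0.0108) were higher under DMSO. Flrt3, a ligand of Unc5 receptors (log2 difference -2.77 ± 0.36 SE, edgeR adjusted p = 0.00647), and Cdon (log2 difference -1.92 ± 0.28 SE, edgeR adjusted p = 0.00907) were lower. Under PLX4720 Rgmb (log2 difference 1.44 ± 0.29 SE, edgeR adjusted p = 0.0233) and Trio (log2 difference 1.36 ± 0.21 SE, edgeR adjusted p = 0.00949) were higher. Flrt3 (log2 difference -2.20 ± 0.48 SE, edgeR adjusted p = 0.0289) and Mical3, an oxidase that acts on actin below plexins (log2 difference -1.68 ± 0.24 SE, edgeR adjusted p = 0.00764), were lower. Of the netrin receptors outside the Unc5 genes, Dcc stayed at 0.163 CPM or less, and Neo1 stood at 72.5 to 167 CPM over the 12 libraries.

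The genes whose log2(CPM + 1) followed Unc5c most closely over the 12 libraries were Epb41l2 (Pearson r = 0.94), Zfyve16 (0.92), Pbxip1 (0.91), Gm43729 (0.90) and Dcaf12 (0.89). For Plxna2 they were Prr13 (0.97), Sptlc1 (0.97), Ddit4l (0.95), Adcy9 (0.95) and Ythdc2 (0.94). These values describe likeness over libraries that share lines and treatment, and carry no test.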

How the data were processed

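Stranded total RNA libraries, depleted of ribosomal RNA per the labels' protocols, were available for 12 samples. Each deposited table gives fragment counts per Ensembl gene from featureCounts 1.5.2 on GRCm38, per the file headers, whose command names no strand option, with the aligner not given in the sources used here. The tables are counts as deposited by the authors. Gene symbols came from the reference table given for the work (47224 of 47729 genes have one), and Ntn3 is not analysed here.

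From the counts, edgeR 4.0.16 (R 4.3.3) quasi-likelihood tests were fitted over all genes after filterByExpr and TMM scaling, with p-values adjusted by Benjamini and Hochberg and a threshold of 0.05. The treatment fit took all 12 libraries, blocked on cell line, and estimated 1 treatment effect for each site; the site fits used 6 libraries each, without a block. CPM were scaled by TMM factors, FPKM divide CPM by the featureCounts length in kilobases, and changes per line used log2(CPM + 1). Each SE was worked back from the test, as the absolute log2 change divided by the square root of the F statistic. It is not a separate estimate of the spread between lines. Both libraries of a line come from the same cells in culture, and after the group means were removed the correlation within a line was 0.79 to 0.90. Scripts were tested on simulated data. No pair of libraries within a group was a duplicate, and pairs across groups were not compared.

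Genes past the threshold in any of the 6 comparisons with a mean log2 CPM of at least 0 were picked for library values. Up to 8 per comparison were taken by smallest p, along with the most abundant of each family. For some of them, among them Unc5b, Plxna3 and Sema4a, library values are printed for 1 treatment only. Up to 4 other guidance genes per comparison and 5 genes most like each of Unc5c and Plxna2 were also named. Other genes called were named to account for the counts, after their values were seen. The members and all gene lists were chosen with earlier results of these data known. The alternatives tried were DESeq2 1.42.0 as test and as scaling, no filter on low counts, fits with and without the replicate block, each site fitted alone, all 12 libraries in 1 fit, another pseudocount, each line left out, and M2 and M3 summed as 1 line (chosen after seeing the data). No correction of the T3 PLX4720 library for its mitochondrial share was made.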

Additional observations from a re-analysis of the deposited data

Results flagged for a closer look

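The response to PLX4720 differed between the primary and the metastasis lines for 5 guidance genes by the interaction term of edgeR's quasi-likelihood test, and each is given here as the log2 change in the metastasis lines minus that in the primary lines. The gap was 2.90 for Unc5c, higher with PLX4720 in 6 of 6 lines. It was 2.88 for Sema3f and 0.72 for Nrp1, both also higher in 6 of 6 lines. For Sema7a, lower in 6 of 6 lines, the gap was -2.29. For Ntn1 it was -1.45, with 3 of 3 primary lines higher and 3 of 3 metastasis lines lower. Groups of 3 libraries were too small for a search for single libraries that stand apart.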

How the results depend on the processing

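No single-gene value past the threshold, as reported or under the alternative, changed direction under any alternative run; of values past it in neither fit, 99 changed sign, among 42 gene and comparison pairs. Over the single-gene values, 2217 kept their side of the threshold, 204 lost it and 85 gained it. Without the replicate block, which leaves the difference between lines in the error, edgeR called 0 guidance genes over all 6 lines (7 at an unadjusted p under 0.05), 0 in the primary lines (2), 0 in the metastasis lines (7) and 0 for the difference in response (1); with the block, DESeq2 called 20 over all 6 lines and 13 in the primary lines. In the primary lines, where the count was 8, it was 13 with no filter on low counts, 17 with each site fitted alone and 13 with M2 and M3 summed as 1 line. For the difference in response, where it was 5, it was 8 with no filter and 3 with M2 and M3 summed. Summing M2 and M3 gave 19 calls over all 6 lines, 19 in the metastasis lines, 10 between sites under DMSO and 13 under PLX4720. It lost Plxna4 (adjusted p = 0.154), Sema6b (0.0743) and Unc5a (0.105) in the metastasis lines, and Nrp1 (0.0723) and Sema3f (0.0593) for the difference in response. Between sites it lost Plxna3 (0.0539), Sema3f (0.0615), Sema4f (0.0779) and Unc5a (0.0739) under DMSO, and Nrp2 (0.0722), Plxnc1 (0.05002), Sema3c (0.0801) and Unc5b (0.101) under PLX4720. Leaving out each line in turn gave 17 to 21 calls over all 6 lines, 1 to 14 in the primary lines, 13 to 21 in the metastasis lines, 1 to 9 for the difference in response, 8 to 16 between sites under DMSO and 8 to 12 under PLX4720. The causes of these changes were not tested. Lines with the same number at both sites did not deviate together from their group means (r from -0.09 to 0.06). Lines from 1 mouse need not deviate alike, so these values cannot tell whether a number stands for a shared mouse. A replicate block by number gave 12 calls between sites under DMSO and 11 under PLX4720, against 14 and 17 without it. Where a line is left out of a site, its remaining 2 lines carry that arm. The other guidance genes were not refitted without single lines. At these depths a gene with no fragment could still hold up to 3 per library.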
